A study of Homo sapiens with 9 samples.

Results

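This section describes 9 genes of the contractile actin cytoskeleton, which were chosen by symbol and found by Ensembl identifier among the 58735 genes of the count table. They comprise the cross-linkers FLNA, ACTN1 and ACTN4, the myosin II chains MYH9, MYH10 and MYL9, and the filament side-binding proteins TAGLN, TPM1 and TPM2. RNA was sequenced from an established clear cell renal carcinoma line with defective VHL and constitutive HIF2α. The design asked which transcripts depend on HIF2α, either blocked by a drug or removed by a knockout. The 3 groups had 3 libraries each. Control held untreated WT cells. PT2385 held WT cells treated for 48 h with 10 μM of PT2385, a small molecule that blocks HIF2α. KO held cells that the labels give as a HIF2α knockout. All groups were grown for 48 h at 21% oxygen in DMEM with glucose and FBS. The sample titles of KO name no clone, so changes that follow the loss of HIF2α and changes that arose while the KO cells were made cannot be told apart. The labels do not say whether replicates came from separate cultures, so the tests measure the spread between these libraries. Total counts per library lay between 11881000 and 14730081.

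Filamins and alpha-actinins join actin filaments into networks and bundles, and anchor them to adhesions and to the membrane. Non-muscle myosin II, built from heavy chains and regulatory light chains, pulls on these filaments, while tropomyosins and transgelin lie along their sides and set which other proteins can bind. In epithelial and carcinoma cells these proteins make up stress fibres and the cell cortex, and the smooth muscle forms of several of them mark contractile tissue.

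The knockout was checked first on EPAS1, which encodes HIF2α. EPAS1 had 271, 264 and 232 CPM (counts scaled to the library size with edgeR's TMM factors) in control, 247, 247 and 220.4 in PT2385, and 20.2, 25.1 and 21.0 in KO. All KO libraries lay far below the others, with a log2 fold change of -3.52 against control (adjusted p = 2.15e-09, edgeR quasi-likelihood F test with Benjamini-Hochberg adjustment over all tested genes, as in every comparison here), while the control and PT2385 libraries overlapped. In each same-numbered pair EPAS1 was lower in PT2385, with a log2 fold change of -0.11 (adjusted p = 0.459) in the fit without pairing. It was called lower there only with the replicate number as a block together with GC content and length offsets (-0.13, adjusted p = 0.0140). The 5 HIF2α target genes VEGFA, SLC2A1, NDRG1, EGLN3 and CA12 were called lower in both PT2385 and KO. Their summed level fell from 2324 ± 65.7 CPM in control to 445 ± 26.2 in PT2385 and 414 ± 26.9 in KO (SD, n = 3). The 10 renal tubular and carcinoma markers summed to 6202 ± 207 CPM in control (SD, n = 3). VIM, the intermediate filament gene vimentin, made up most of this at 4733 ± 168 CPM, so the sum says little of the others. The tubular gene LRP2 had 0 counts in every library.

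Levels of different genes can be compared only per length, here as RPKM over the canonical transcript. In control cells FLNA was the highest of the 9 at 1110 ± 49.1 RPKM (SD, n = 3) and ranked 11 among 30101 detected genes. TPM1 followed at 833 ± 16.3 RPKM (rank 21) and MYH9 at 746 ± 24.5 RPKM (rank 25). ACTN4 had 162 ± 4.06 RPKM and ACTN1 130.1 ± 0.878 RPKM, ahead of MYL9 at 41.4 ± 1.11 RPKM and MYH10 at 23.4 ± 0.554 RPKM. The bottom of the order held TPM2 at 1.79 ± 0.430 RPKM and TAGLN at 0.497 ± 0.128 RPKM, which were counted in few reads. No neighbours in this order overlapped in their replicates, in control, PT2385 or KO. The order was the same in PT2385, whereas in KO TPM1, at 382 ± 15.2 RPKM, came after MYH9, at 600.2 ± 38.6 RPKM. The canonical TPM1 transcript has 1217 bases and that of FLNA 8507, and reads from other isoforms would change these levels, which gene counts cannot show. Together the 9 genes took 1.75% ± 0.0577 of all counts in control, 1.70% ± 0.0232 in PT2385 and 1.57% ± 0.0936 in KO (SD, n = 3).

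**Figure D1:**
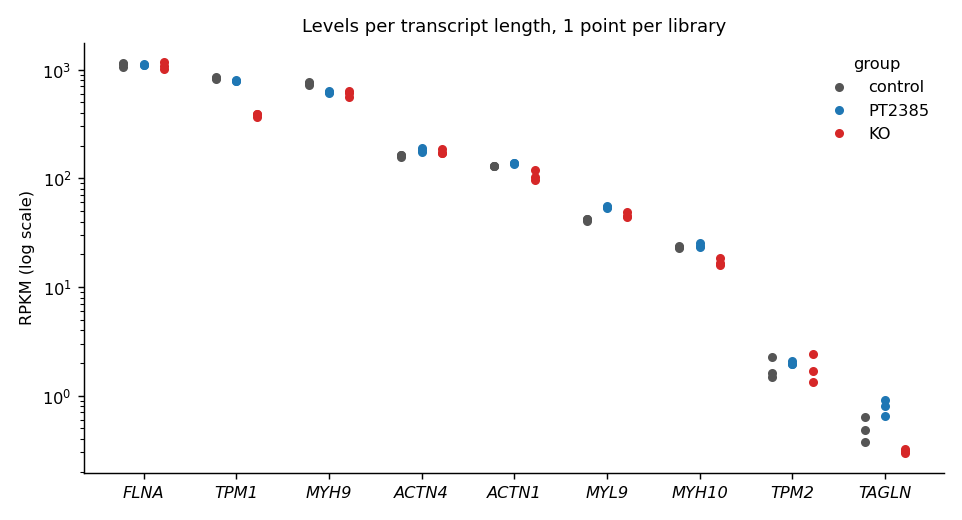
RPKM on a log scale for each of the 9 genes, ordered by the control mean, with 1 point per library and the 3 groups in colour. FLNA, TPM1 and MYH9 stand at the top and TPM2 and TAGLN at the bottom, and the TPM1 points of KO lie below those of MYH9.

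Upon PT2385 treatment 1 of the 9 genes was called higher and 1 lower at an adjusted p under 0.05: the light chain gene MYL9 rose and the heavy chain gene MYH9 fell. Among the 15089 genes tested, 7.70% were called, 3.08% higher and 4.62% lower. These calls come from a fit without pairing. With the replicate number as a block, 2305 genes were called in place of 1162 and 3 of the 9, with ACTN4 added, and without PT2385 replicate 2 the number of genes called was 574. In 6 of the 9 genes every PT2385 library lay on the same side of every control library (4 higher and 2 lower), against 25.9% of all tested genes. The median log2 fold change of the 9 was 0.08 and that of all tested genes 0.00. With 3 libraries a group, the smallest p of an exact two-sided permutation test is 0.1.

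In KO against control 4 of the 9 genes were called, all lower: TPM1, MYH10, MYH9 and ACTN1. The background was 30.1% of 15192 genes tested, with 14.7% higher and 15.4% lower. None was called higher by edgeR without a block or by DESeq2, although 2 (ACTN4 and MYL9) were higher at an unadjusted p under 0.05. The groups did not overlap in 7 of the 9 genes (2 higher and 5 lower), against 44.0% of all genes. The median log2 fold change was -0.28 for the 9 genes and 0.00 for all genes tested.

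In KO against PT2385 5 genes were called, again all lower: TAGLN, TPM1, MYH10, ACTN1 and MYL9. Of 15402 genes tested 18.8% were called, 8.47% higher and 10.3% lower, and 35.1% had groups that did not overlap, as had these 5 genes. None was called higher by edgeR, with or without a block, or by DESeq2, and none was higher at an unadjusted p under 0.05. The 3 comparisons share libraries in pairs, so their values are given side by side and were not tested against each other. All libraries come from bulk cultures, in which fewer cells that express a gene and less RNA per cell cannot be told apart.

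**Figure D2:**
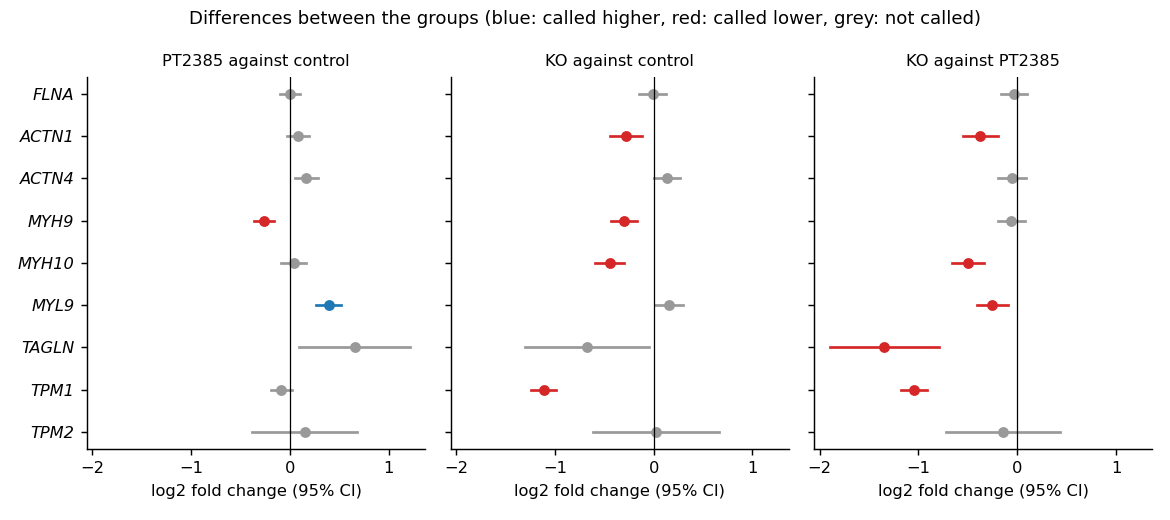
Log2 fold change (point) with its 95% confidence interval (line) for each gene in the 3 comparisons, blue where called higher, red where called lower and grey where not called. TPM1 is at -1.11 in KO against control and -1.05 against PT2385, MYL9 is at 0.39 in PT2385 against control, and FLNA is near 0 in each panel.

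FLNA (ENSG00000196924, chrX:154348524-154374634, minus strand, GRCh38), the filamin that joins crossing filaments and links them to integrins, had 9622, 9734 and 8961 CPM in control, 9300.2, 9645 and 9474 in PT2385, and 9948, 8679 and 9266 in KO. The 3 groups overlapped, with the highest and the lowest library both in KO. Its log2 fold change was 0.00 (95% confidence interval -0.10 to 0.10) in PT2385 and -0.01 (-0.15 to 0.13) in KO, both against control. With 107622 to 135205 counts in a library, the interval puts a change of the KO mean at no more than 0.15 in either direction on this scale. The sign of these values turned with the library left out, from -0.06 to 0.04 in KO.

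The promoter of FLNA is shown because the gene was the most abundant of the 9 and carries a CArG box, the motif that serum response factor binds and that is known from cytoskeletal genes. Promoter windows from RefSeq (GRCh38.p14), from 250 bases before to 50 after the transcription start, were found for 7 of the 9 genes, with 12 windows in all. They were searched on both strands for the CArG box and for the core of the hypoxia response element, spelled ACGTG or GCGTG, and matches to either are in capitals. In 35116 windows of all genes, 1.29% held a CArG box and 48.4% the hypoxia core, against 2 and 7 of the 12 windows here. The windows of ACTN4 and TPM2, which are not printed, held no CArG box. A match describes the sequence and is not a bound site. The FLNA window (chrX:154374585-154374884, minus strand) had 1 CArG box, which begins at base -94 from the start, and 3 matches to the hypoxia core.
FLNA: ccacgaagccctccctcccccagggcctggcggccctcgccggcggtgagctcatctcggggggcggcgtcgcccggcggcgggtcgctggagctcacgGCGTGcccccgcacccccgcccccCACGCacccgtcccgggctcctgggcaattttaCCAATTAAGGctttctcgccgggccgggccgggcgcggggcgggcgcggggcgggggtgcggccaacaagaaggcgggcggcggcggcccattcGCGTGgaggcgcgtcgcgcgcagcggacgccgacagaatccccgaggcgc

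ACTN1 (ENSG00000072110, chr14:68874128-68979440, minus strand), an alpha-actinin that bundles filaments in stress fibres and adhesions, had 483, 488 and 481 CPM in control and 514, 517 and 507 in PT2385. In KO it had 386, 360.1 and 442 CPM. Every KO library lay below all others. The KO libraries were spread more widely, with a coefficient of variation of 10.6% against 0.675% in control and 0.948% in PT2385. Each coefficient rests on 3 libraries, and the difference in spread was not tested. The fall in KO against control was -0.28 (standard error 0.0745, adjusted p = 0.0159). It was lost in 4 of 6 fits that left out a library, with an adjusted p of 0.0509 without control replicate 1, 0.0554 without control replicate 2, 0.0611 without KO replicate 1 and 0.0510 without KO replicate 2. Against PT2385 the log2 fold change of KO was -0.37 (standard error 0.0797, adjusted p = 0.00733), called in all 6 such fits. In PT2385 against control ACTN1 was at 0.08 (adjusted p = 0.416).

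ACTN1 has 4 windows at different starts, of which 1 holds a CArG box, beginning at base -171, and no hypoxia core (chr14:68977517-68977816, minus strand). It is printed for its box. The start of this window lies 1874 bases downstream of the gene start in the GENCODE annotation, and gene counts do not show which start was used.
ACTN1: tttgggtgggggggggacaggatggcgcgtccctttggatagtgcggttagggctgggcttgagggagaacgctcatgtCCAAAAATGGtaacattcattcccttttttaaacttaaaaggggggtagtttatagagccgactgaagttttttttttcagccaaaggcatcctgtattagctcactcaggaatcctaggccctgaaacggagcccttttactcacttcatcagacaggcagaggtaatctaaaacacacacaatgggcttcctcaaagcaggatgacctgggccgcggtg

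ACTN4 (ENSG00000130402, chr19:38647649-38731589, plus strand), the other non-muscle alpha-actinin, had 787, 820.0 and 824 CPM in control, 867, 917 and 951 in PT2385, and 858, 857 and 935 in KO. Both other groups lay above control in every library and overlapped each other. The difference did not pass the test, with a log2 fold change of 0.17 in PT2385 (standard error 0.0530, adjusted p = 0.0877) and 0.14 in KO (standard error 0.0576, adjusted p = 0.101), both against control. In PT2385 it passed with the replicate number as a block (adjusted p = 0.00578), with library-size scaling (0.0405) and without PT2385 replicate 1 (0.0471), in a range of 0.00517 to 1 over all alternatives. In KO against control ACTN4 passed only with the replicate number as a block (adjusted p = 0.0438). On the opposite strand ACTN4 overlaps CAPN12, which had 9.33 counts a library on average.

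Among 10 tested genes of 12 other actin cross-linkers, 1 was called lower in PT2385 and 2 lower and 2 higher in KO, both against control. The medians were 0.03 and -0.01 on the log2 scale. SYNPO, which encodes synaptopodin, an alpha-actinin binding protein of stress fibres, had 809, 761 and 661 CPM in control, 193, 203 and 183 in PT2385, and 185, 189 and 214 in KO. The PT2385 and KO libraries overlapped and all lay below control. Its log2 fold change against control was -1.95 in PT2385 (standard error 0.0786, adjusted p = 1.12e-08) and -1.91 in KO (standard error 0.0869, adjusted p = 5.36e-08). LCP1, the plastin of blood cells that carcinoma lines can also express, fell by 2.95 in KO (adjusted p = 2.2e-06), and the spectrin gene SPTAN1 rose by 0.36 (adjusted p = 4.15e-04). FLNC was the highest of this list per length, with 2567 ± 73.0 CPM in control, 2696 ± 168 in PT2385 and 2349 ± 190 in KO (SD, n = 3), and was not called in any comparison.

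MYH9 (ENSG00000100345, chr22:36281280-36388010, minus strand), the heavy chain of non-muscle myosin IIA, had 5624, 5701 and 5354 CPM in control, 4541, 4667 and 4729 in PT2385, and 4510.4, 4167 and 4738 in KO. All treated and knockout libraries lay below all controls, and those of PT2385 and KO overlapped. Against control it fell by 0.26 in PT2385 (standard error 0.0461, adjusted p = 0.00380) and by 0.30 in KO (standard error 0.0602, adjusted p = 0.00297) on the log2 scale, to 83.3% and 81.1% of the control level. Both calls held when any 1 library was left out, with adjusted p values of at most 0.0445 and 0.0197. KO and PT2385 differed by -0.06 (95% confidence interval -0.19 to 0.08).

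MYH10 (ENSG00000133026, chr17:8474207-8631376, minus strand), the heavy chain of myosin IIB, had 185, 176 and 179.5 CPM in control, 179, 182 and 195 in PT2385, and 123, 143 and 129 in KO. Control and PT2385 overlapped, and every KO library lay below them. In KO the log2 fold change was -0.44 against control (with a standard error of 0.0669 and an adjusted p of 4.97e-04) and -0.50 against PT2385 (standard error 0.0742, adjusted p = 8.95e-04), and 0.04 in PT2385 against control (adjusted p = 0.780). Both KO values were called in every fit without 1 library. MYH10 shares 72 exonic bases with NDEL1 on the opposite strand, which had 965 counts a library in control, 1029 in PT2385 and 1058 in KO. The strand setting of the counting is not given in the sources used here, so reads in the shared stretch cannot be assigned.

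The windows of both heavy chain genes are shown with that of TPM1, since these 3 genes fell in KO against control in every fit that left out a library. The MYH9 window (chr22:36387918-36388217, minus strand) and the TPM1 window (chr15:63048239-63048538, plus strand) held neither motif. The MYH10 window (chr17:8630676-8630975, minus strand) held 2 matches to the hypoxia core and no CArG box. The TPM1 start in RefSeq lies 5869 bases downstream of its GENCODE gene start.
MYH9: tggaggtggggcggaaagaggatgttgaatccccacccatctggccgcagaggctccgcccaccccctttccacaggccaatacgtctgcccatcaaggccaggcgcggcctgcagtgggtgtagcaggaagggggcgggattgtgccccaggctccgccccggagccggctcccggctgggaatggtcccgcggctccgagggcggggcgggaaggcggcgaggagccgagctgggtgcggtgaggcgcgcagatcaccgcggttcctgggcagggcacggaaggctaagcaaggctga
MYH10: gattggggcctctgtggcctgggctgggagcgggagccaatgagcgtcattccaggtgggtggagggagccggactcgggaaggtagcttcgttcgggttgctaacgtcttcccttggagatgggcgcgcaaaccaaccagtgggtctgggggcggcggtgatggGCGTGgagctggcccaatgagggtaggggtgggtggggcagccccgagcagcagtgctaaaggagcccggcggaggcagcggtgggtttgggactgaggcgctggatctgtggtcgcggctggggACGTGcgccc
TPM1: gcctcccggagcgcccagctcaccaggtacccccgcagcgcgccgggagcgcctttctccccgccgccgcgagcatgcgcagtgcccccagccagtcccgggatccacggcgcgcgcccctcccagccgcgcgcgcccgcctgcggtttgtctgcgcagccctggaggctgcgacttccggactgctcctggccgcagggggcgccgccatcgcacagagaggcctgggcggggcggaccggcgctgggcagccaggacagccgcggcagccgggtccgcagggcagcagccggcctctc

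MYL9 (ENSG00000101335, chr20:36541497-36551447, plus strand), a regulatory light chain whose phosphorylation switches myosin II on, had 112, 118 and 117 CPM in control, 154, 149.5 and 152 in PT2385, and 124, 122 and 137 in KO. The 3 groups did not overlap, with PT2385 highest and control lowest. It rose by 0.39 upon PT2385 treatment (standard error 0.0584, adjusted p = 0.00117), to 131% of control, and stayed called without any 1 library (adjusted p of at most 0.0113). In KO it was 0.16 above control (adjusted p = 0.0949) and 0.25 below PT2385 (log2 fold change -0.25, standard error 0.0705, adjusted p = 0.0290). The last of these calls was lost in 5 of 6 fits that left out a library: without KO replicate 1 (adjusted p = 0.125) or KO replicate 2 (0.106), and without PT2385 replicate 1 (0.0796), replicate 2 (0.109) or replicate 3 (0.0543). With offsets for GC content and length the adjusted p was 0.0573.

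Of 6 other myosin II chains 4 were tested, and 0 were called in PT2385 or KO against control by edgeR without a block or by DESeq2, with 0 and 1 at an unadjusted p under 0.05. MYL6, the essential light chain, was the highest per length, with 219 ± 23.6 CPM in control, 233 ± 7.50 in PT2385 and 229 ± 8.73 in KO (SD, n = 3). In KO against PT2385 MYL12B, another regulatory light chain, was called higher (log2 fold change 0.23, adjusted p = 0.0336). It was not called without KO replicate 1 (adjusted p = 0.0949), KO replicate 3 (0.0749), PT2385 replicate 1 (0.0767) or PT2385 replicate 2 (0.144), without a filter on low counts (0.0539) or with GC content and length offsets (0.0545), with a range of 0.0124 to 1 over all alternatives. MYH14, the heavy chain of myosin IIC, had 0 counts in every library, and MYH11, the smooth muscle heavy chain, had at most 3.

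TPM1 (ENSG00000140416, chr15:63042620-63071915, plus strand), a tropomyosin that winds along the filament, had 996, 1036 and 1011 CPM in control, 948, 974 and 949.6 in PT2385, and 476, 444 and 475 in KO. Every KO library lay below all of the others by a wide margin, and PT2385 lay just below control. In KO TPM1 fell by 1.11 on the log2 scale against control (standard error 0.0560, adjusted p = 1.1e-07), to 46.2% of the control level, and by 1.05 against PT2385 (standard error 0.0610, adjusted p = 1.71e-06). By p it ranked 73 among all genes tested in KO against control and 38 in KO against PT2385. It was the 1 gene of the 9 that passed a test against a 1.5-fold change in KO against control. In PT2385 against control it was at -0.09 (standard error 0.0491, adjusted p = 0.342), and passed with the replicate number as a block together with GC content and length offsets (adjusted p = 0.00612, with a range up to 1 over all alternatives).

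TAGLN (ENSG00000149591, chr11:117199370-117207464, plus strand), which encodes transgelin, was counted in few reads: 22, 29 and 17 in control, 43, 41 and 35 in PT2385, and 16, 16 and 17 in KO. The groups were ordered PT2385, control and KO, and KO overlapped control only in a count of 17, not after scaling. In KO against PT2385 it fell by 1.35 on the log2 scale (standard error 0.251, adjusted p = 0.00346), called in every fit without 1 library. Against control it was 0.65 in PT2385 (standard error 0.257, adjusted p = 0.166) and -0.67 in KO (standard error 0.286, adjusted p = 0.102). TAGLN shares 2233 exonic bases with PCSK7 on the opposite strand, which had 758 counts a library in control, 951 in PT2385 and 924 in KO. On its own strand TAGLN shares 2498 exonic bases with ENSG00000280143, an unconfirmed transcript with 4.11 counts a library on average, against 26.2 for TAGLN. If strand was ignored in the counting, reads in the stretch shared with PCSK7 could be given to TAGLN or left uncounted. With so few TAGLN reads either would change its counts, and this was not tested.

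TPM2 (ENSG00000198467, chr9:35681992-35690056, minus strand), a tropomyosin of striated and smooth muscle that other cells also use, had 21 to 33 counts in control, 31 to 33 in PT2385 and 23 to 41 in KO. The 3 groups overlapped. Its log2 fold change was 0.15 in PT2385 and 0.02 in KO against control, with 95% confidence intervals of -0.38 to 0.68 and -0.62 to 0.66, so a change of up to about that size was not detectable at this depth.

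**Figure D3:**
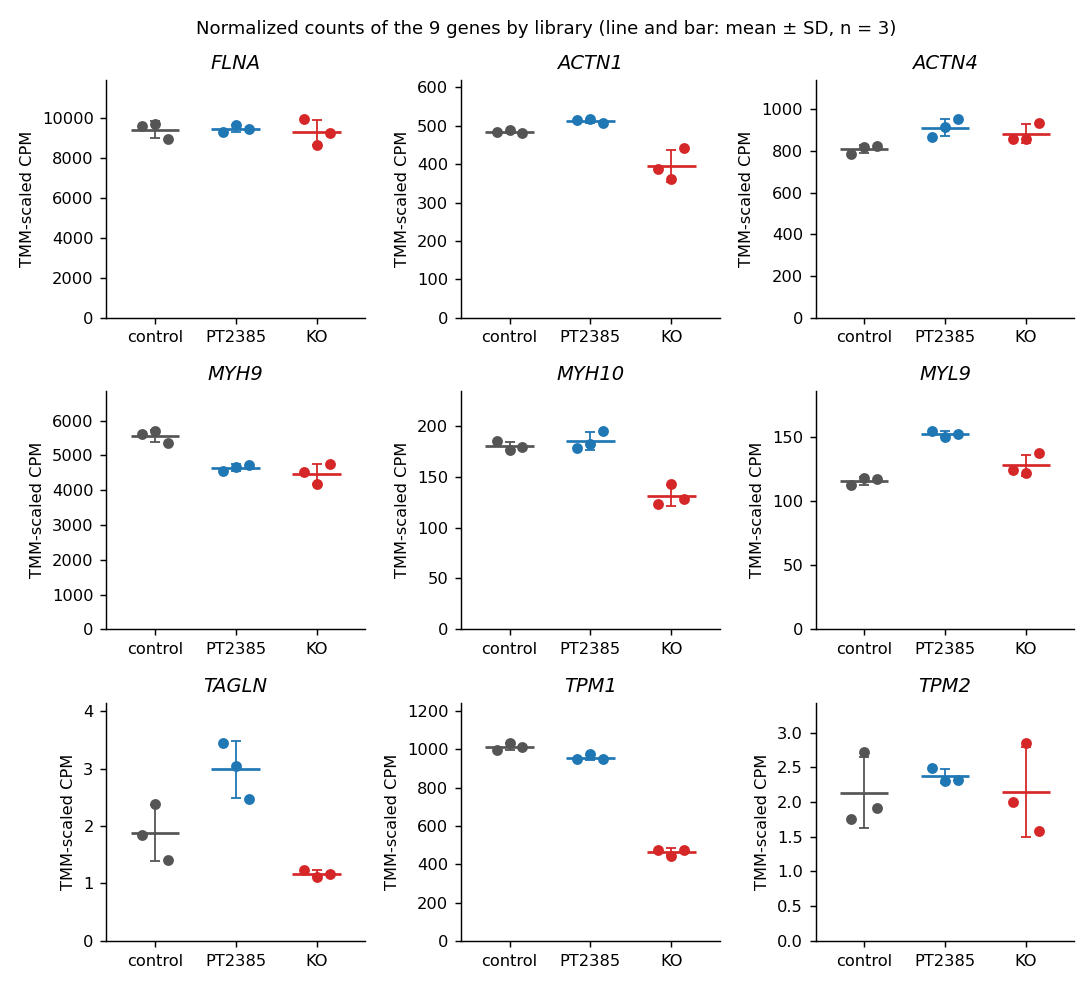
CPM of each of the 9 genes in every library (points), with the mean and SD of each group of 3 (line and bar) and axes that start at 0. TPM1 and MYH10 are lower in KO than in both other groups, MYH9 is lower in PT2385 and KO than in control, and MYL9 is highest in PT2385.

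Of 10 other filament side-binding proteins 7 were tested, and edgeR and DESeq2 called 0 of them in PT2385 against control, with 3 at an unadjusted p under 0.05. With the replicate number as a block edgeR called CNN2, a calponin, higher there (log2 fold change 0.13, adjusted p = 0.0408, in a range of 0.0408 to 1 over all alternatives). In KO against control 2 were called lower and 1 higher, with a median of -0.08. TMOD3, a tropomodulin that caps the tropomyosin-coated pointed end, fell by 0.70 (standard error 0.0643, adjusted p = 1.4e-05), from 160.2 to 98.1 CPM on average, and CALD1, which encodes caldesmon, fell by 0.35 (adjusted p = 0.00716). CNN2 rose by 0.27 (adjusted p = 0.0363), a call lost without control replicate 1 (0.137), 2 (0.0754) or 3 (0.0877) and without KO replicate 3 (0.0598), in a range of 7.37e-04 to 1 over all alternatives. TAGLN2, the highest per length, had 681 ± 32.3 CPM in control, 674 ± 6.21 in PT2385 and 640 ± 8.78 in KO (SD, n = 3).

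Over the 9 libraries the 36 pairs among the 9 genes had a median Pearson correlation of 0.216 in log2 CPM, from -0.581 to 0.939, as a description with no test. The libraries share a group and a depth, and the correlation was recomputed on deviations from the group means, where the median was 0.202. The highest pair, MYH10 with TPM1, went from 0.939 over all libraries to -0.814 on the deviations. ACTN1 with MYL9 went the other way, from 0.413 to 0.875.

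**Figure D4:**
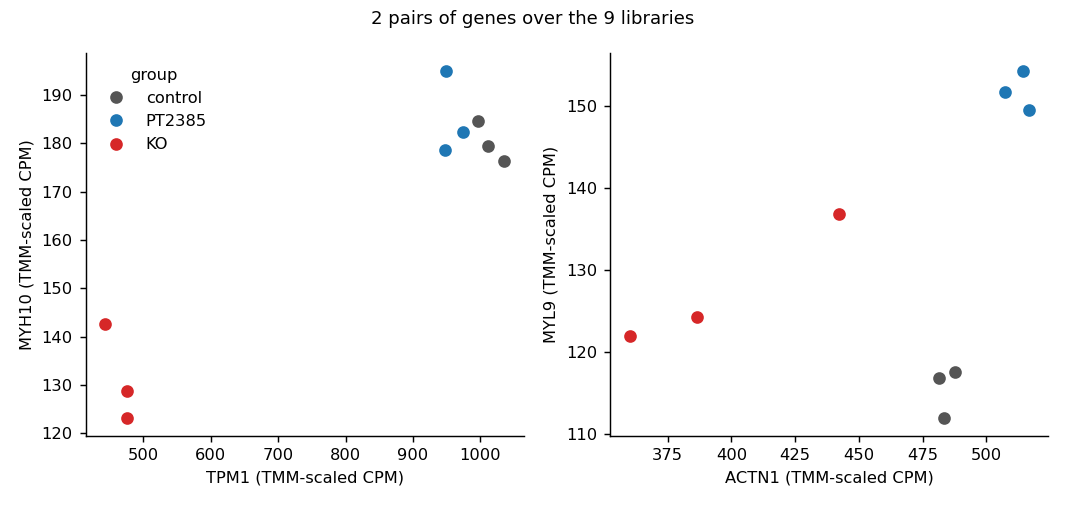
CPM of MYH10 against TPM1 (left) and of MYL9 against ACTN1 (right), with 1 point per library and the 3 groups in colour. In the left panel the KO points lie apart at the lower left, while within KO and within control the library with more TPM1 has less MYH10. In the right panel the groups form 3 separate clusters.

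The genes whose pattern over the 9 libraries was most like that of a member were taken from 10101 tested genes with a mean of at least 100 counts. These correlations include the differences between groups, and are a description with no test. TPM1 was most like AQR (r = 0.998), NUP210 (0.996) and ZWILCH (0.996), and 663 genes correlated with it above 0.9. The log2 fold change in KO against control was -0.68 for AQR, -5.36 for NUP210 and -0.98 for ZWILCH. MYH10 was most like TSPAN3 (0.992), PLEKHG2 (0.989) and CLK3 (0.986), with 499 genes above 0.9. For MYH9 the most alike were SLC15A4 (0.979), SLC39A14 (0.979) and LPCAT1 (0.974). MYL9 was most like DBN1 (0.971), which encodes the actin-binding protein drebrin, CREB3L2 (0.965) and JAG1 (0.964). ACTN4 was most like LRRN4 (0.986), STIM1 (0.970) and PPP6R1 (0.970). FLNA had no gene above 0.9, with an unnamed pseudogene (0.866), ZMIZ2 (0.837) and TOMM5 (0.833) closest. The low counts of TAGLN and TPM2 give little precision to their closest genes, SERF2 (0.969), MT1X (0.969) and RBBP5 (0.967) for TAGLN and FHIP2B (0.955), MID1 (0.913) and HOXA9 (0.903) for TPM2.

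Of 6 actins 3 were tested. ACTB, the highest per length, had 6679 ± 316 CPM in control, 7201 ± 63.5 in PT2385 and 7046 ± 200.3 in KO (SD, n = 3), and was not called in any comparison. Every PT2385 library of ACTB lay above every control. In PT2385 against control all 3 tested actins were higher at an unadjusted p under 0.05. ACTA2, the smooth muscle actin, had 25, 23 and 15 counts in control and 69, 33 and 54 in PT2385. It was called higher in PT2385 against control (log2 fold change 1.15, adjusted p = 0.0464), a call lost without control replicate 1 (0.0945), 2 (0.133) or 3 (0.163) and without PT2385 replicate 1 (0.108), in a range of 2.13e-04 to 0.770 over all alternatives. In KO 0 actins were called by edgeR or DESeq2 against either control or PT2385, with 0 at an unadjusted p under 0.05 against control and 2, both lower, against PT2385.

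Of 29 genes for filament assembly and turnover 2 were called higher and 3 lower in PT2385, and 7 higher and 5 lower in KO, against control. Their medians were 0.00 and 0.04 on the log2 scale. CTTN, which encodes cortactin, rose by 0.66 in PT2385 (adjusted p = 0.00496) and 0.84 in KO (adjusted p = 1.5e-04). The formin gene DIAPH2 fell by 0.55 in PT2385 (adjusted p = 0.00186), and FHOD1, another formin, rose by 0.53 (adjusted p = 9.17e-04). In KO the largest changes after CTTN were rises of 0.53 in GSN, the severing protein gelsolin (adjusted p = 0.00614), and of 0.53 in TMSB4X, a thymosin that holds actin monomers (adjusted p = 2.02e-04). TMSB10 was the highest of this list per length, with 464 ± 47.6 CPM in control, 429 ± 22.8 in PT2385 and 438 ± 68.3 in KO (SD, n = 3).

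Among 20 tested genes of 21 focal adhesion and stress fibre linkers 2 were called higher and 2 lower in PT2385, and 4 higher and 6 lower in KO, against control. LIMA1, a LIM protein that stabilizes filaments, rose from 70.4 CPM in control to 115 in PT2385 and 179.6 in KO on average. On the log2 scale it rose by 0.70 in PT2385 (standard error 0.0787, adjusted p = 1.22e-04) and by 1.36 in KO (standard error 0.144, adjusted p = 3.81e-05). NEXN fell by 0.63 in PT2385 (adjusted p = 0.00615) and by 0.77 in KO (adjusted p = 0.00179), and PXN, which encodes the adhesion scaffold paxillin, fell by 0.44 in PT2385 (adjusted p = 6.39e-04). TLN2, the less abundant talin, fell by 0.86 in KO (adjusted p = 1.26e-06). Against PT2385 TLN2 fell by 1.02 in KO (adjusted p = 3.37e-06) and CSRP1 by 0.74 (adjusted p = 4.45e-05). In PT2385 against control CSRP1 was not called (adjusted p = 0.0682), and was called higher with the replicate number as a block (log2 fold change 0.19, adjusted p = 0.0148), with the block and GC content and length offsets (0.0228), with upper-quartile (0.0494) or library-size scaling (0.0430) and without PT2385 replicate 3 (0.0244), in a range of 0.0148 to 1 over all alternatives. ZYX, which encodes zyxin and was the highest per length, had 497 ± 23.4 CPM in control, 516 ± 34.6 in PT2385 and 453 ± 54.9 in KO (SD, n = 3).

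The regulators that drive many cytoskeletal genes, serum response factor with its MRTF partners and the YAP and TEAD proteins, were a list of 14 genes with 12 tested. In PT2385 2 were called higher, and in KO 2 higher and 2 lower, against control. MRTFB fell by 0.45 in KO (standard error 0.0686, adjusted p = 5.19e-04), from 114 to 83.0 CPM on average. TEAD3 rose in KO from 6.82 to 13.5 CPM on average (adjusted p = 2.4e-04). Its rise of 0.49 in PT2385 (adjusted p = 0.0403) was lost without control replicate 1 (0.115), 2 (0.132) or 3 (0.0937), without PT2385 replicate 1 (0.0550) or 2 (0.174), by DESeq2 (0.110) and with GC content and length offsets (0.0678), in a range of 0.0189 to 1 over all alternatives. VGLL4 rose by 0.32 in PT2385 (adjusted p = 0.0121) and by 0.37 in KO (adjusted p = 0.00444). The first of these calls was lost without control replicate 2 (0.0753) or PT2385 replicate 2 (0.0662), in a range of 7.67e-04 to 1 over all alternatives. WWTR1 was the highest per length, with 391 ± 31.8 CPM in control, 427 ± 24.7 in PT2385 and 362 ± 31.1 in KO (SD, n = 3), and MYOCD and TEAD2 had 0 counts throughout.

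**Figure D5:**
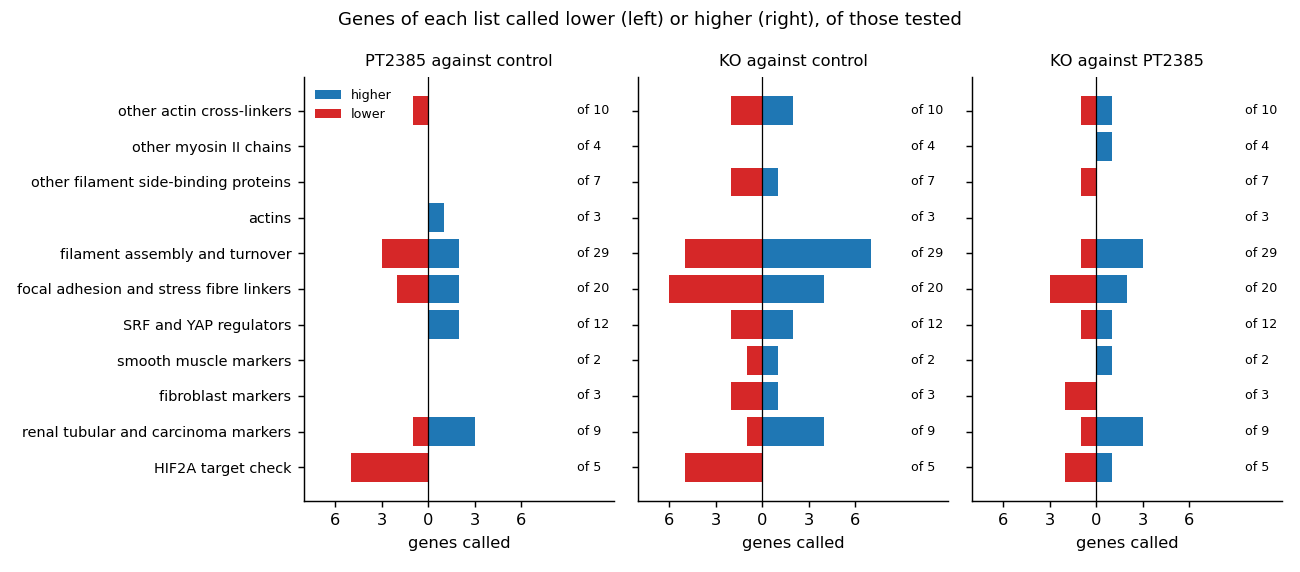
Number of genes of each list shown called lower (red, to the left) and higher (blue, to the right) in the 3 comparisons, with the number tested at the right of each bar. In KO against control 6 focal adhesion and stress fibre genes are lower and 4 higher, and the 5 HIF2α targets are lower in both PT2385 and KO against control.

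Markers of other cell types were counted in few reads, apart from the smooth muscle marker SMTN. Of 9 smooth muscle markers DES and MYOCD had 0 counts in every library and MYH11, LMOD1, CNN1 and ACTG2 at most 3. Their summed level was 116, 150.5 and 166 CPM in control, 111, 134 and 160.1 in PT2385, and 112, 105 and 128 in KO, and the groups overlapped. SMTN, the highest per length, made up nearly all of it. SMTN was called lower in KO (log2 fold change -0.34, adjusted p = 0.0471) with groups that overlapped, and the call was lost without control replicate 2 (0.144) or 3 (0.195), without KO replicate 1 (0.129) or 2 (0.128), with the filter of 1 CPM (0.0503) and with all 9 libraries in 1 model (0.0676), in a range of 5.38e-05 to 1 over all alternatives. SYNPO2, at 0.889 CPM in control and 2.70 in KO, was called higher (adjusted p = 0.00396). Of 6 fibroblast markers COL1A2 and DCN had 0 counts throughout, and the list summed to 9.48, 10.1 and 8.83 CPM in control, 11.5, 13.4 and 10.6 in PT2385, and 6.02, 8.64 and 6.17 in KO, groups that did not overlap. In KO against control PDGFRB fell by 4.50 (adjusted p = 4.56e-05) and COL1A1 by 1.10 (adjusted p = 0.00346). LUM, the highest of them per length, rose by 1.16 (adjusted p = 0.0144) and was not called without control replicate 1 (0.0569), control replicate 2 (0.0661) or KO replicate 2 (0.0553), in a range of 3.53e-04 to 0.184 over all alternatives. Of 4 endothelial and immune markers 0 passed the filter, with PECAM1 at 0 counts and CDH5, PTPRC and CD68 at no more than 3. The part of the marker lists in the changes of the 9 genes was not tested. Of 9 tested renal tubular and carcinoma markers 3 were called higher and 1 lower in PT2385, and 4 higher and 1 lower in KO, against control. CDH6 rose in both, by 1.38 (adjusted p = 3.31e-07) and 1.03 (adjusted p = 0.00232), and PAX2 fell by 1.30 in KO (adjusted p = 2.84e-05). The rise of CDH6 in KO lay between 0.68 and 1.19 with 1 library left out, and was called in each such fit.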

How the data were processed

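Gene counts came from featureCounts on STAR alignments to hg38 (also called GRCh38), after FastQC and cutadapt, per the submitters' processing notes and the paper's methods. Versions, annotation release and strand setting are not given in the sources used here. The deposited values are raw counts, and 0 columns were left without a sample. Identifiers were paired with symbols through GENCODE 44 (58207 of 58735), and each of the 9 symbols matched 1 identifier.

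Each pair of groups was fitted separately in edgeR 4.0.16 (R 4.3.3), after filterByExpr at a minimum count of 10 and TMM scaling. Calls came from its quasi-likelihood F test at a Benjamini-Hochberg adjusted p of 0.05 over every gene tested. All 9 genes passed the filter in each comparison. CPM used TMM factors of all 9 libraries, between 0.988 and 1.02, and RPKM the canonical transcript length. Python 3.11.15 searched the promoters and matplotlib 3.10.9 drew the figures. Intervals are at 95%.

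The 9 genes and the lists were chosen with earlier results of these data known. Genes that could be named were the 9, EPAS1, 5 HIF2α targets, per list and comparison up to 3 called genes of the largest change, each list's highest gene per length, the 3 most correlated genes per member, and genes that overlap a member. List genes with at most 3 counts in every library were named outside this rule. Replicates differed by more than counting noise in every pair, and none was a duplicate. Samples with the same number deviated together in PT2385 and control (correlations of 0.404, 0.104 and 0.387 over 11487 genes). PT2385 replicate 2 with control replicate 1 had 0.0786, so the data hardly pair replicate 2. Of the same-numbered correlations 1 of 3 was under 0.1 between KO and control (0.279, 0.0327 and 0.419) and between KO and PT2385 (0.307, 0.0625 and 0.374). KO replicate 2 had higher correlations with control replicate 1 (0.250) and PT2385 replicate 1 (0.153) than with their replicate 2.

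Alternatives were DESeq2 1.42.0; scaling by library size, RLE or upper quartile; a filter at a mean of 1 CPM or none; 1 model of all 9 libraries; a block for the replicate number; offsets for GC content and length (lowess span 0.3), also with the block; a threshold of 0.01; a 1.5-fold change as the null (glmTreat); and each library left out in turn. They were extended to the list genes this rule took after the data were seen.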

Additional observations from a re-analysis of the deposited data

How the results depend on the processing

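Over 486 values of the 9 genes under all alternatives, 460 kept their side of the threshold, 20 lost a call, 6 gained one, and no called value changed direction. DESeq2, RLE and upper-quartile scaling, both other filters and a single model of all 9 libraries changed none of their 27 values each. In PT2385 against control the number of genes called, 1162, became 2305 with the replicate block, 2999 with the block and GC content and length offsets, 516 at an adjusted p under 0.01 and 172 in a test against a 1.5-fold change. It lay between 574 and 1451 without 1 library: 654, 581 and 728 without control replicate 1, 2 and 3, and 1451, 574 and 1242 without PT2385 replicate 1, 2 and 3. Of the 9 genes the 1.5-fold test called 0 there (edgeR, 0 also at an unadjusted p under 0.05), and the block with offsets called 4, adding ACTN4 and TPM1. The replicate block alone added ACTN4 and changed no other call of the 9 in that comparison. In KO against control 4566 genes became 2788 at 0.01 and 882 in the 1.5-fold test, which called 1 of the 9. In KO against PT2385 2897 became 1657 and 528, with 2 of the 9, and the range without 1 library was 1836 (without PT2385 replicate 2) to 3190. Where KO was compared, 1 of 3 same-numbered pairs had a correlation of deviations under 0.1: the replicate block gave 5501 genes against control and 3783 against PT2385 (5531 and 4173 with offsets added), and ACTN4 was called with the block in the first (adjusted p = 0.0438, in a range up to 1). The cause of these changes was not tested. Among the list genes the block also called MYL12B higher in KO against control (adjusted p = 0.0362, and 0.0434 with offsets, in a range up to 1). In PT2385 against control the block with offsets also called LCP1, SMTN and SPTAN1 lower. It called LUM, TLN2 and TMSB4X higher (adjusted p from 0.00457 to 0.0364 over these genes). In KO against PT2385 the block also called CALD1, CDH6, FHOD1 and SMTN lower (adjusted p from 0.0314 to 0.0413). With offsets added, it also called CTTN, PXN and DIAPH2 higher there. Of 85 called differences of the 43 genes that the naming rule took, not all of them described here and with EPAS1 and the HIF2α targets included, 69 were lost in no fit other than the stricter thresholds, and 0 changed direction. Low counts limit TAGLN and TPM2, and the lack of strand information limits TAGLN and MYH10.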
